A study of Mus musculus with 6 samples.

Results

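The genes described here are the mouse Hox genes, the homeobox transcription factors of the HoxA, HoxB, HoxC and HoxD clusters. They were chosen by symbol, a cluster letter followed by a paralogue number, on probe sets that the platform annotation pairs with a single gene. Of the 39 mouse Hox genes 37 were measured, among 19938 tested genes. The other two were not analysed here. Each of the 37 had 1 probe set.

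Hox genes give cells their position along the head to tail axis of the embryo and along the limb. Within a cluster their order on the chromosome follows the order in which they are switched on along the body, so low paralogue numbers act towards the head and high numbers towards the tail and the limb ends. Mesenchymal and bone marrow stromal cells of the adult keep a pattern of Hox expression that reflects the part of the skeleton they came from. Hox proteins bind DNA together with TALE homeodomain partners of the Pbx, Meis and Pknox families. Polycomb complexes hold silent Hox genes off and Trithorax complexes hold active ones on.

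The knockout group (KO188, 3 arrays) came from mice lacking the microRNA miR-188, and the wild-type group (WT, 3 arrays) from mice with the gene intact. Both groups were BMSCs, that is bone marrow stromal cells, a plastic-adherent population able to form osteoblasts or adipocytes, taken from 6-month-old C57BL/6 mice. Both were cultured in 10% serum with 0.05 mM ascorbate-2-phosphate, 100 nM dexamethasone and 10 mM beta-glycerophosphate, a mixture that induces bone formation. The labels give neither the bone the marrow came from, nor the number of mice, nor the cells in which the microRNA was deleted. They call the samples biological replicates without saying that each had its own mouse or culture, so p-values measure only the spread between these samples, which may be technical. No batch is labelled, so a difference in culture or handling shared by all arrays of a genotype cannot be told apart from the genotype.

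Values are log2 probe set values, and a change is the mean of the KO188 arrays minus the mean of the WT arrays. Probes differ between genes, so levels were not ranked from one gene to another. Of 1194 receptor genes for smell and pheromones (olfactory and vomeronasal) the 95th percentile of level, 6.72, was taken as an approximate floor for genes that cells do not use, called the receptor guide below. Array medians ranged from 7.43 to 7.50 and averaged higher in KO188. Centring the arrays on their medians moved the median change over all tested genes from -0.005 to -0.049. Across genes, the correlation was 0.9988 to 0.9993 within a genotype and 0.9909 to 0.9912 between genotypes. The median SD per gene was 0.048 in KO188 and 0.039 in WT. The number of arrays limits the precision. The probe set for Mir188, the deleted gene, read 7.03, 7.13 and 7.09 in KO188 cells, against 7.15, 7.13 and 7.16 in WT cells. The groups overlapped (change -0.06, SE 0.03, limma adjusted p = 0.24). No source used here says which part of the locus this probe set reads, and it therefore does not check the genotype labels.

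The Hox clusters also hold microRNA genes. Mature sequences are shown because the probe sets for 2 of these genes changed with the Hox genes around them. Both probe sets read below the receptor guide, and mature microRNAs were not measured apart from longer transcripts. In the RefSeq annotation of GRCm38.p6 the Mir196 genes lie beside the paralogue group 9 genes, and Mir10a, Mir10b and Mir615 lie within the spans of Hoxb3, Hoxd4 and Hoxc5. The sequences below are RefSeq's, 5′ to 3′, with the seed (bases 2 to 8) in capitals. The products of the deleted gene are shown last for comparison.
mmu-miR-196a-5p: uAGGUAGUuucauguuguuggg
mmu-miR-196b-5p: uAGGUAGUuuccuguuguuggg
mmu-miR-10a-5p: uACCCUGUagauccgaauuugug
mmu-miR-10b-5p: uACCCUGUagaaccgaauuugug
mmu-miR-615-3p: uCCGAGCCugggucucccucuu
mmu-miR-188-5p: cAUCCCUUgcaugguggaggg
mmu-miR-188-3p: cUCCCACAugcaggguuugca
Both miR-196 sequences share 1 seed and differ by A12C, counted from the 5′ end with miR-196a first. The miR-10 pair shares another seed and differs by U12A, counted the same way with miR-10a first. The seeds of miR-615-3p and of the miR-188 products differ from these and from each other.

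Within the HoxA cluster Hoxa9 and Hoxa10 were higher in KO188 while their neighbour Hoxa7 did not pass the test, so the promoters of these genes are shown to set the sequences beside the values given further on. Each is the 250 bases before the transcript start in the RefSeq table for GRCm38.p6, on the strand of the gene, and capitals mark matches to the motifs named afterwards.
Hoxa9, chr6:52227371-52227620, minus strand: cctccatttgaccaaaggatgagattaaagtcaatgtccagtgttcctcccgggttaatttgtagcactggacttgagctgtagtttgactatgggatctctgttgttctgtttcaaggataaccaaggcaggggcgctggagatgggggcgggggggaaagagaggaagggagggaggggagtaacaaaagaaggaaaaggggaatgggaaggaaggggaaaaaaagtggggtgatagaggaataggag
Hoxa10, chr6:52234940-52235189, minus strand: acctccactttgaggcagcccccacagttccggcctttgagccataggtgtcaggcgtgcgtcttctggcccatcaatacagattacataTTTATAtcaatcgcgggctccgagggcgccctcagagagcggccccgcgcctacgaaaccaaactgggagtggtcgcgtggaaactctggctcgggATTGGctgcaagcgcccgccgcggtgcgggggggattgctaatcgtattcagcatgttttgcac
Hoxa7, chr6:52218574-52218823, minus strand: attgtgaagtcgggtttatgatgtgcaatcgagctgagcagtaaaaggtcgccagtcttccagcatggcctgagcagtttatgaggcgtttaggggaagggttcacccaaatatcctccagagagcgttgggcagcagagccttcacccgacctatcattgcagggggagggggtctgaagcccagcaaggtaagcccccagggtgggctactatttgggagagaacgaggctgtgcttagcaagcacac
Searched on both strands were the TATA box core TATAAA, the CCAAT box, the Meis and Pknox core TGACAG and the Pbx and Hox composite TGATTNAT, of which none contains another. The Hoxa10 promoter held a TATAAA match starting 160 bases before the transcript start and a CCAAT match starting 64 bases before it, both on the opposite strand, and 20 CpG dinucleotides. A second Hoxa10 start in the table held no match. The Hoxa9 promoter held none of the 4 motifs and 3 CpG dinucleotides, and the Hoxa7 promoter none and 7. The promoters of 22 of the 39 Hox genes were in the table, 24 in number. Among those not used here were Hoxc6, Hoxc8, Hoxc9, Hoxc10, Hoxc11, Hoxc12 and Hoxc13. Of the genes higher in KO188 only Hoxa9 and Hoxa10 were included, and of HoxB only Hoxb1, Hoxb4 and Hoxb8. CCAAT was present in 14 of the 24 (58.3%), against 33.8% of all 32851 promoters. TATAAA was present in 4 (16.7%, against 12.4%), TGACAG in 2 (8.33%, against 15.9%) and TGATTNAT in 2 (8.33%, against 2.82%). The Hox promoters held a median of 12.5 CpG dinucleotides, against 6 in all promoters. These matches describe letters in the window and are not binding sites.

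Of the 37 measured Hox genes, 8 rose in KO188 cells, 1 fell and 28 did not pass the test (limma, Benjamini-Hochberg adjusted p under 0.05 over all tested genes). Among all tested genes 13.3% were higher and 16.5% lower, 29.8% in all. Of the 8 that rose, 6 belonged to the HoxC cluster, Hoxc6, Hoxc8, Hoxc9, Hoxc10, Hoxc11 and Hoxc13, and the others were Hoxa9 and Hoxa10. The gene that fell was Hoxa11, at a level below the receptor guide. The rises lay between 0.19 for Hoxc10 and 0.48 for Hoxc8, or 1.14-fold to 1.39-fold. In cultures measured as a whole, more or fewer cells of a type and more or less RNA per cell cannot be told apart. The median change over the 37 genes was 0.01, against -0.01 over all tested genes.

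**Figure D1:**
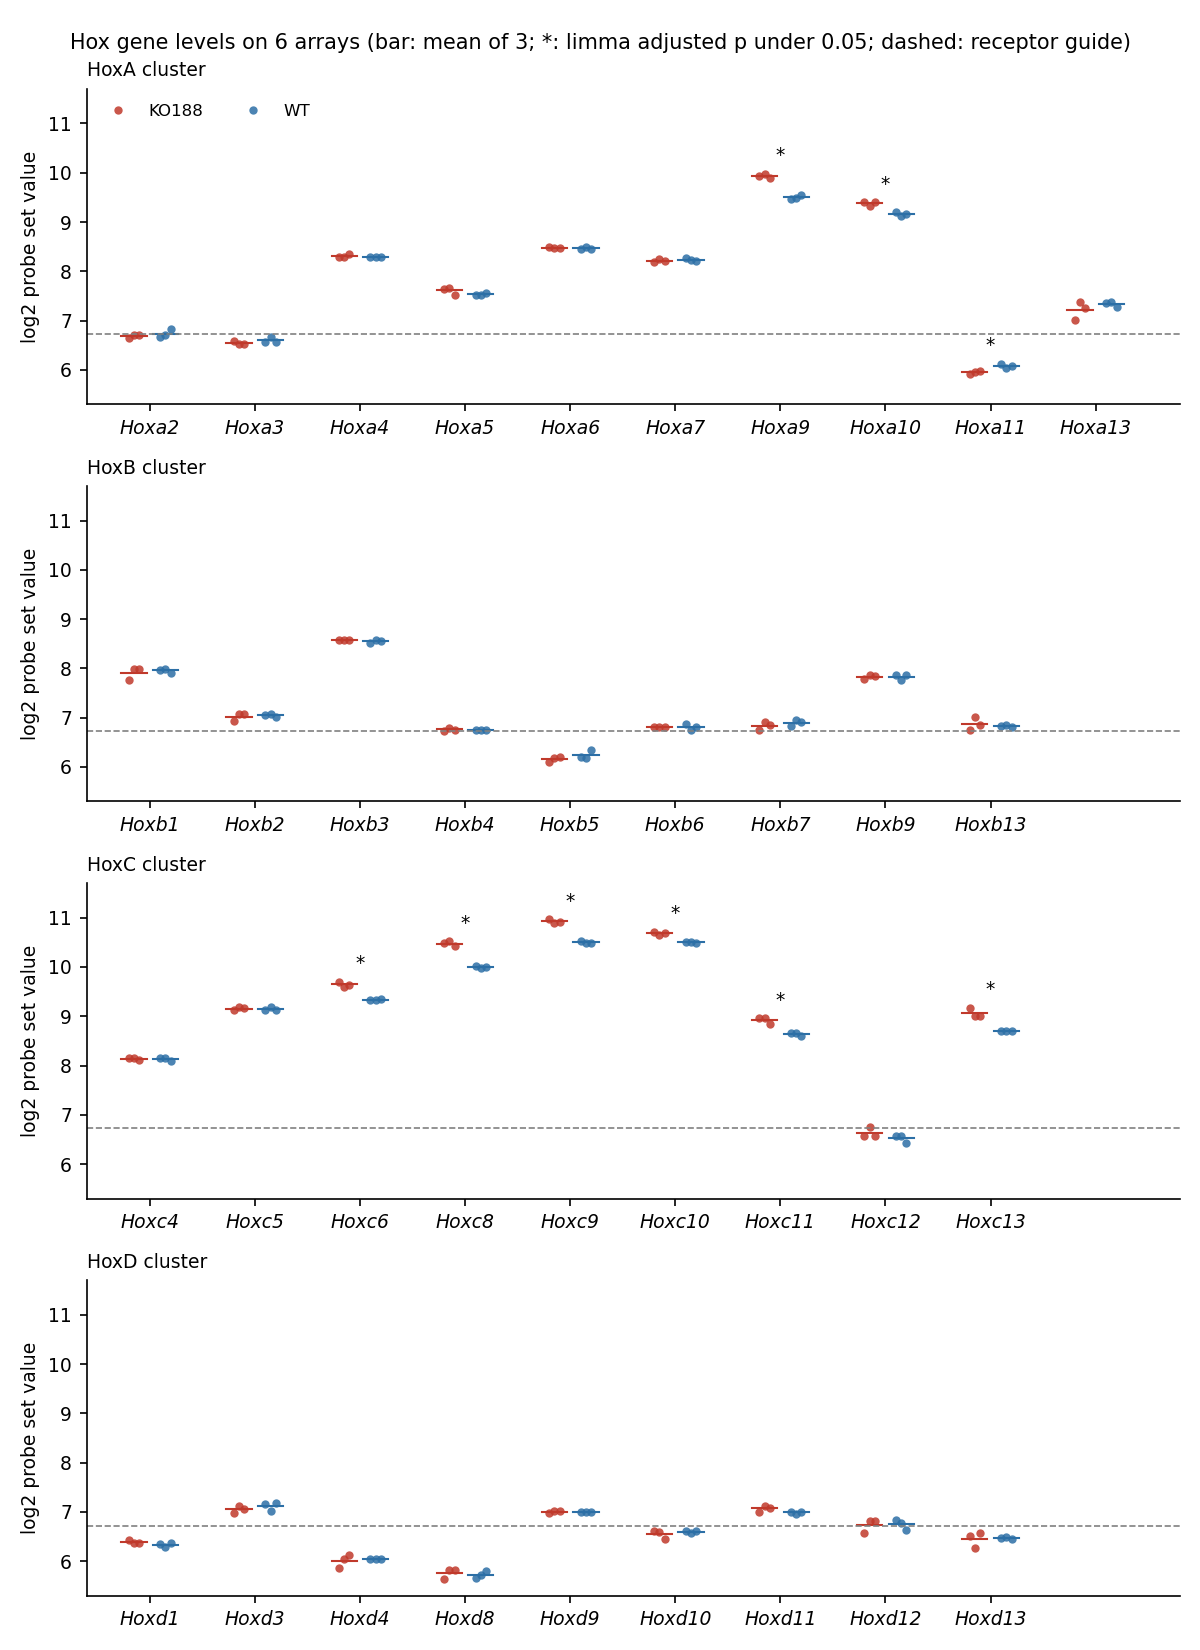
Log2 probe set values of the 37 measured Hox genes on each of the 6 arrays, 1 panel per cluster with paralogue numbers increasing to the right. Points are arrays (KO188 left, WT right), short bars are means of 3, asterisks mark a limma adjusted p under 0.05 and the dashed line is the receptor guide of 6.72. In the HoxC panel the KO188 points of 6 genes stand above their WT points, and in the HoxB and HoxD panels no gene passed the test.

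Levels in WT cells set the frame for these changes. In both groups 27 Hox genes lay above the receptor guide and 9 lay at or below it, namely Hoxa3, Hoxa11, Hoxb5, Hoxc12, Hoxd1, Hoxd4, Hoxd8, Hoxd10 and Hoxd13. Hoxa2 lay on either side of it, with means of 6.68 in KO188 and 6.73 in WT cells. Of the 27 genes above it in both groups, 8 rose and 0 fell, where 41.1% of all genes above the guide changed, 17.9% upwards and 23.1% downwards. By cluster, genes above the guide by their mean over the 6 arrays numbered 7 of 10 in HoxA, 8 of 9 in HoxB, 8 of 9 in HoxC and 4 of 9 in HoxD.

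The HoxC genes were examined in their order from head to tail. Hoxc4 and Hoxc5, which act in the neck and upper trunk, did not pass the test. Hoxc5 read 9.12, 9.18 and 9.17 in KO188 cells, against 9.13, 9.19 and 9.13 in WT cells. Its change was 0.01 (95% interval -0.07 to 0.08), and that of Hoxc4, with means of 8.14 in KO188 and 8.13 in WT, was 0.01 (95% interval -0.07 to 0.08). The KO188 and WT arrays of both genes overlapped.

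From Hoxc6 onwards the values separated. Hoxc6, a gene of the thoracic and upper limb region, read 9.70, 9.60 and 9.64 in KO188 cells, against 9.33, 9.34 and 9.35 in WT cells. The lowest KO188 array was 0.26 above the highest WT array. Its means were 9.65 ± 0.05 in KO188 and 9.34 ± 0.01 in WT (SD, n = 3 each), a rise of 0.31 (SE 0.03, 1.24-fold, limma adjusted p = 0.00062). Hoxc8, which patterns the lower ribs and the spinal nerves of the thorax, read 10.49, 10.52 and 10.42 in KO188 cells, against 10.01, 9.99 and 10.00 in WT cells. The groups did not overlap, and the gap between the lowest KO188 and the highest WT array was 0.40. Hoxc8 averaged 10.48 ± 0.05 in KO188 and 10.00 ± 0.01 in WT cells (SD, n = 3 each), a rise of 0.48 (SE 0.03, 1.39-fold, limma adjusted p = 1.2e-04).

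Hoxc9, a paralogue group 9 gene active in the lower thorax, read 10.97, 10.90 and 10.91 in KO188 cells, against 10.52, 10.49 and 10.49 in WT cells. Again no KO188 array fell within the WT range. Its means were 10.93 ± 0.04 in KO188 and 10.50 ± 0.02 in WT (SD, n = 3 each), a rise of 0.42 (SE 0.03, 1.34-fold, limma adjusted p = 1.0e-04). Hoxc10, which with its paralogues patterns the lumbar region and the hindlimb, had the smallest rise among the genes that rose. It read 10.72, 10.66 and 10.69 in KO188 cells, against 10.51, 10.50 and 10.49 in WT cells, and the groups did not overlap. The means, 10.69 ± 0.03 in KO188 and 10.50 ± 0.01 in WT (SD, n = 3 each), gave a rise of 0.19 (SE 0.03, 1.14-fold, limma adjusted p = 0.0022).

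The posterior end of the cluster was mixed. Hoxc11, a hindlimb and sacral gene, read 8.97, 8.97 and 8.84 in KO188 cells, against 8.65, 8.65 and 8.60 in WT cells. Its KO188 arrays all lay above its WT arrays. Hoxc11 averaged 8.92 ± 0.07 in KO188 and 8.63 ± 0.03 in WT cells (SD, n = 3 each), a rise of 0.29 (SE 0.04, 1.22-fold, limma adjusted p = 0.0028). Hoxc12 lay below the receptor guide, with means of 6.63 in KO188 and 6.52 in WT, and did not pass the test (change 0.11, 95% interval -0.05 to 0.27, limma adjusted p = 0.28). Hoxc13, known for its role in hair and nail formation, read 9.17, 9.01 and 9.01 in KO188 cells, against 8.71, 8.69 and 8.71 in WT cells. Replicate 1 of KO188 was the highest, and all KO188 arrays stood above the WT arrays. Its means of 9.07 ± 0.09 in KO188 and 8.70 ± 0.01 in WT (SD, n = 3 each) gave a rise of 0.36 (SE 0.05, 1.28-fold, limma adjusted p = 0.0018). The deposited tables give Hoxc11 and Hoxc13 identical values on 2 of the 3 WT arrays, a feature shared by 26.5% of tested genes, which narrows the spread their tests use.

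In the HoxA cluster the adjacent genes Hoxa9 and Hoxa10 rose. Hoxa9, a posterior patterning gene that also drives the growth of blood progenitors, read 9.93, 9.98 and 9.89 in KO188 cells, against 9.47, 9.50 and 9.54 in WT cells. The 2 sets of arrays were separated by 0.35. Hoxa9 averaged 9.93 ± 0.05 in KO188 and 9.50 ± 0.03 in WT cells (SD, n = 3 each), a rise of 0.43 (SE 0.03, 1.35-fold, limma adjusted p = 2.0e-04). Hoxa10, which suppresses ribs in the lumbar region and shapes the upper leg and the uterus, read 9.40, 9.32 and 9.41 in KO188 cells, against 9.20, 9.12 and 9.16 in WT cells. The gap between groups was 0.12, the narrowest of the 8 genes. Its means were 9.38 ± 0.05 in KO188 and 9.16 ± 0.04 in WT (SD, n = 3 each), a rise of 0.22 (SE 0.04, 1.16-fold, limma adjusted p = 0.0045).

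Hoxa11, which with Hoxd11 forms the middle segment of the limb, read 5.92, 5.96 and 5.97 in KO188 cells, against 6.12, 6.03 and 6.07 in WT cells. The KO188 arrays lay below the WT arrays, and all 6 lay below the receptor guide. The change was -0.12 (SE 0.03, limma adjusted p = 0.038). The call ended with a variance trend (adjusted p = 0.079), with replicate number as a block (adjusted p = 0.10) and without 5 of the 6 arrays taken out in turn, where the adjusted p ranged from 0.035 to 0.11 over all 6.

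The remaining HoxA genes did not pass. Hoxa7 read 8.19, 8.25 and 8.21 in KO188 cells, against 8.27, 8.22 and 8.22 in WT cells, with overlapping groups and a change of -0.02 (95% interval -0.09 to 0.05). Hoxa13, the gene of the hands, feet and genital tubercle, averaged 7.21 ± 0.18 in KO188 and 7.34 ± 0.05 in WT cells (SD, n = 3 each). Its KO188 arrays were spread out, with replicate 1 at 7.01 and the others at 7.37 and 7.25. Hoxa5, a regulator of lung and neck development, averaged 7.61 in KO188 and 7.53 in WT, a change of 0.08 (limma adjusted p = 0.23). Without replicate 3 of KO188 the change was 0.12 and passed (limma adjusted p = 0.027). The means of Hoxa2, Hoxa3, Hoxa4 and Hoxa6 were 6.68, 6.54, 8.32 and 8.47 in KO188, against 6.73, 6.60, 8.30 and 8.46 in WT.

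**Figure D2:**
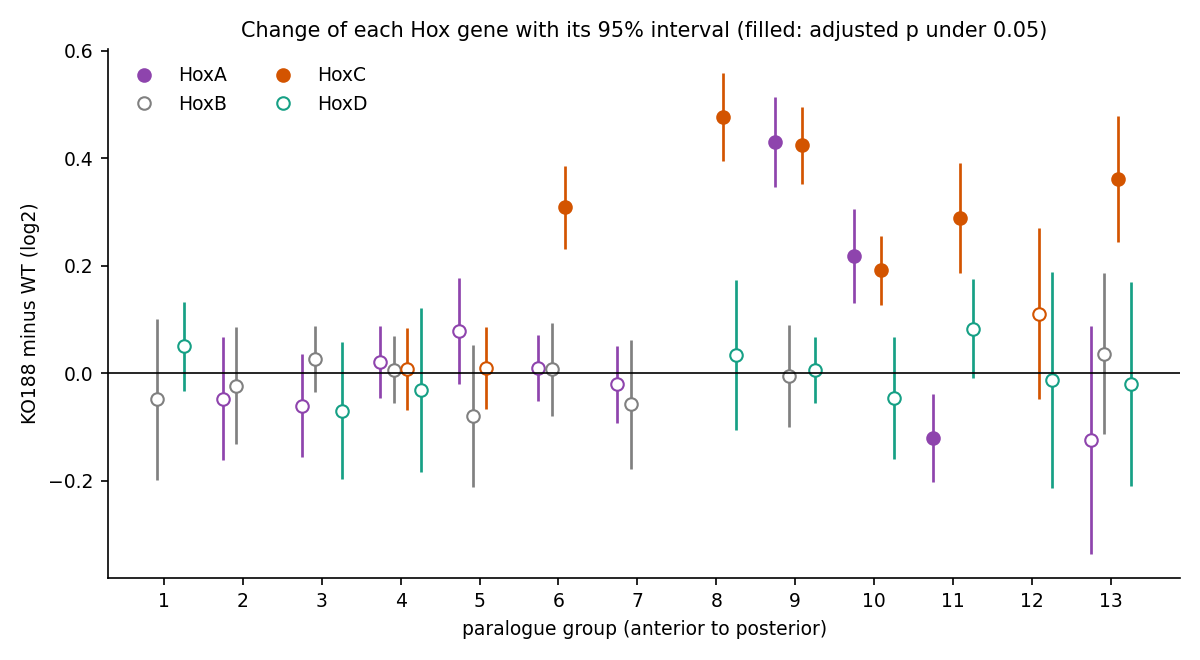
Change of each Hox gene (KO188 minus WT, log2, vertical axis) by paralogue group (horizontal axis, head to tail), coloured by cluster, with 95% intervals from limma; filled points have an adjusted p under 0.05. The filled points above 0 lie at paralogue groups 6, 8, 9, 10, 11 and 13, and the filled point below 0 is Hoxa11 at -0.12.

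No HoxB gene passed the test, nor at an unadjusted p under 0.05, which 7595 of all 19938 tested genes reached. All 95% intervals of the 9 measured HoxB genes lay between -0.21 and 0.19. Hoxb1 and Hoxb2, genes of the hindbrain, averaged 7.91 and 7.02 in KO188, against 7.96 and 7.05 in WT. Hoxb3 averaged 8.57 in KO188 and 8.55 in WT, and Hoxb4, a regulator of blood stem cells, 6.76 in both. Hoxb5, Hoxb6 and Hoxb7 averaged 6.16, 6.81 and 6.84 in KO188, against 6.24, 6.81 and 6.90 in WT. Hoxb9 averaged 7.83 in both groups. Hoxb13, active in the tail and the prostate, averaged 6.87 in KO188 and 6.84 in WT.

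No HoxD gene passed the test either, nor at an unadjusted p under 0.05, beside the same 7595 of all 19938 tested genes. The 95% intervals of the HoxD genes lay between -0.21 and 0.19. Hoxd11 had the lowest p of the 9, with 7.00, 7.13 and 7.08 in KO188 cells, against 7.00, 6.96 and 7.00 in WT cells. Its groups touched at 7.00, and its change was 0.08 (limma adjusted p = 0.17). Without replicate 1 of KO188 the change was 0.12 and passed (limma adjusted p = 0.040). Hoxd3, Hoxd9 and Hoxd12 averaged 7.05, 7.01 and 6.74 in KO188, against 7.12, 7.00 and 6.75 in WT. Hoxd1, Hoxd4, Hoxd8, Hoxd10 and Hoxd13, of which Hoxd13 shapes the digits, lay below the guide, with means of 6.38, 6.01, 5.76, 6.55 and 6.45 in KO188, against 6.33, 6.04, 5.73, 6.60 and 6.47 in WT.

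By position along the body, 0 of 7 measured genes of paralogue groups 1 to 3 changed. None did at an unadjusted p under 0.05 either, which 7595 of all 19938 tested genes reached. In groups 4 to 8, 2 of 14 rose and 0 fell, a share of rises near the 13.3% of all tested genes. In groups 9 to 13, 6 of 16 rose and 1 fell. A difference between these classes was not tested. Median changes were -0.05, 0.01 and 0.06 in that order. By their mean over the 6 arrays, 4 of 7, 11 of 14 and 12 of 16 genes lay above the receptor guide. Over all clusters, WT means were 8.63 to 10.50 for the 8 genes that rose and 5.73 to 9.15 for the 28 not passed. A difference by position apart from level was not tested. Paralogue group 9 had 2 rises among 4 genes and group 10 had 2 among 3, while groups 6, 8, 11 and 13 had 1 rise each.

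Neighbours and paralogues were set against each other to ask whether the changes differed between members of the family. The 15 pairs were those of adjacent measured genes with different calls, and those of a gene that rose and one that did not pass in the same paralogue group, both above the guide. Each was compared by the difference between both genes on each array. Since the pairs were chosen by their calls, these values are a description. An exact two-sided permutation test over 20 assignments of the arrays cannot give a p below 0.10, so none could pass. In 13 of the 15 pairs every KO188 array exceeded every WT array (exact p = 0.10, adjusted 0.12 over the 15). Hoxc6 minus Hoxc5 was 0.58, 0.42 and 0.47 in KO188, against 0.21, 0.15 and 0.22 in WT, a difference of 0.30. Hoxa9 minus Hoxa7 was 1.74, 1.74 and 1.68 in KO188, against 1.20, 1.28 and 1.32 in WT, a difference of 0.45. In both pairs the groups did not overlap. Among paralogues, Hoxc9 minus Hoxb9 differed by 0.43 between the groups, Hoxa9 minus Hoxd9 by 0.42 and Hoxc13 minus Hoxa13 by 0.49. The pair of Hoxc13 and Hoxc12 overlapped, with a difference of 0.25 (exact p = 0.20, adjusted 0.21), as did that of Hoxa11 and Hoxa13, with a difference of 0.00 (exact p = 1).

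The same genes were then read in their chromosomal order in RefSeq, together with the non-coding genes of the clusters and the genes that flank them. In HoxC the block of rises ran from Hoxc6 to Hoxc11 and resumed at Hoxc13, with Mir196a-2 inside it between Hoxc9 and Hoxc10. The Mir196a-2 probe set read 6.59 on all 3 KO188 arrays, against 6.13, 6.38 and 6.34 in WT cells. No KO188 array fell within the WT range, although all values lay below the receptor guide. The rise was 0.30 (SE 0.06, limma adjusted p = 0.012). Mir196b, between Hoxa9 and Hoxa10, read 6.69 on all 3 KO188 arrays, against 6.50, 6.54 and 6.44 in WT cells. It too lay below the guide with no overlap, and rose by 0.20 (SE 0.03, limma adjusted p = 0.0043). The Mir196a-2 and Mir196b probe sets each hold identical values on some KO188 arrays (SD 0.002 and 0.004), which narrows the spread their tests use.

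Of the 11 measured non-coding genes of the clusters (24 listed, median change 0.03) these 2 rose and 0 fell. That share of rises is near the 13.3% of all tested genes, of which 16.5% fell. In both groups 8 of the 11 lay at or below the receptor guide. Mir196a-1 of the HoxB cluster, which encodes the same mature sequence as Mir196a-2, averaged 5.81 in KO188 and 5.75 in WT (change 0.06, limma adjusted p = 0.22). Mir10a and Mir10b averaged 3.91 and 3.63 in KO188, against 3.88 and 3.68 in WT. Mir615 averaged 8.41 in KO188 and 8.39 in WT. In mouse, miR-196 is known to direct cleavage of the Hoxb8 transcript, which was not analysed here. The array does not tell a mature microRNA from its longer transcript, and the Mir196b and Mir196a-2 calls rest on values that a filter at the guide would leave untested.

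Among the 21 measured of the 3 nearest protein-coding genes on each side of a cluster, 4 rose and 6 fell, and in a separate list of flanking genes (21 measured of 24 listed) 3 rose and 4 fell (median change -0.01). Of all tested genes 13.3% rose and 16.5% fell, and of those above the guide 17.9% and 23.1%. Calcoco1, an autophagy receptor beyond Hoxc13, averaged 10.79 in KO188 and 10.40 in WT, a rise of 0.39 (limma adjusted p = 2.6e-04). Cbx3, a heterochromatin protein beside HoxA, averaged 11.53 in KO188 and 11.80 in WT and fell by 0.27 (limma adjusted p = 8.4e-04). Past Calcoco1, Atp5g2 fell by 0.09 and Atf7 rose by 0.11 (limma adjusted p = 0.049 and 0.041). Cbx5, a heterochromatin protein on the Hoxc4 side, averaged 12.34 in KO188 and 12.49 in WT and fell by 0.15 (limma adjusted p = 0.0085). Lnpk, an endoplasmic reticulum protein beside HoxD, averaged 9.57 in KO188 and 9.90 in WT and fell by 0.33 (limma adjusted p = 0.0016). With median centring of the arrays 1 gene of the separate list rose and 7 fell.

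**Figure D3:**
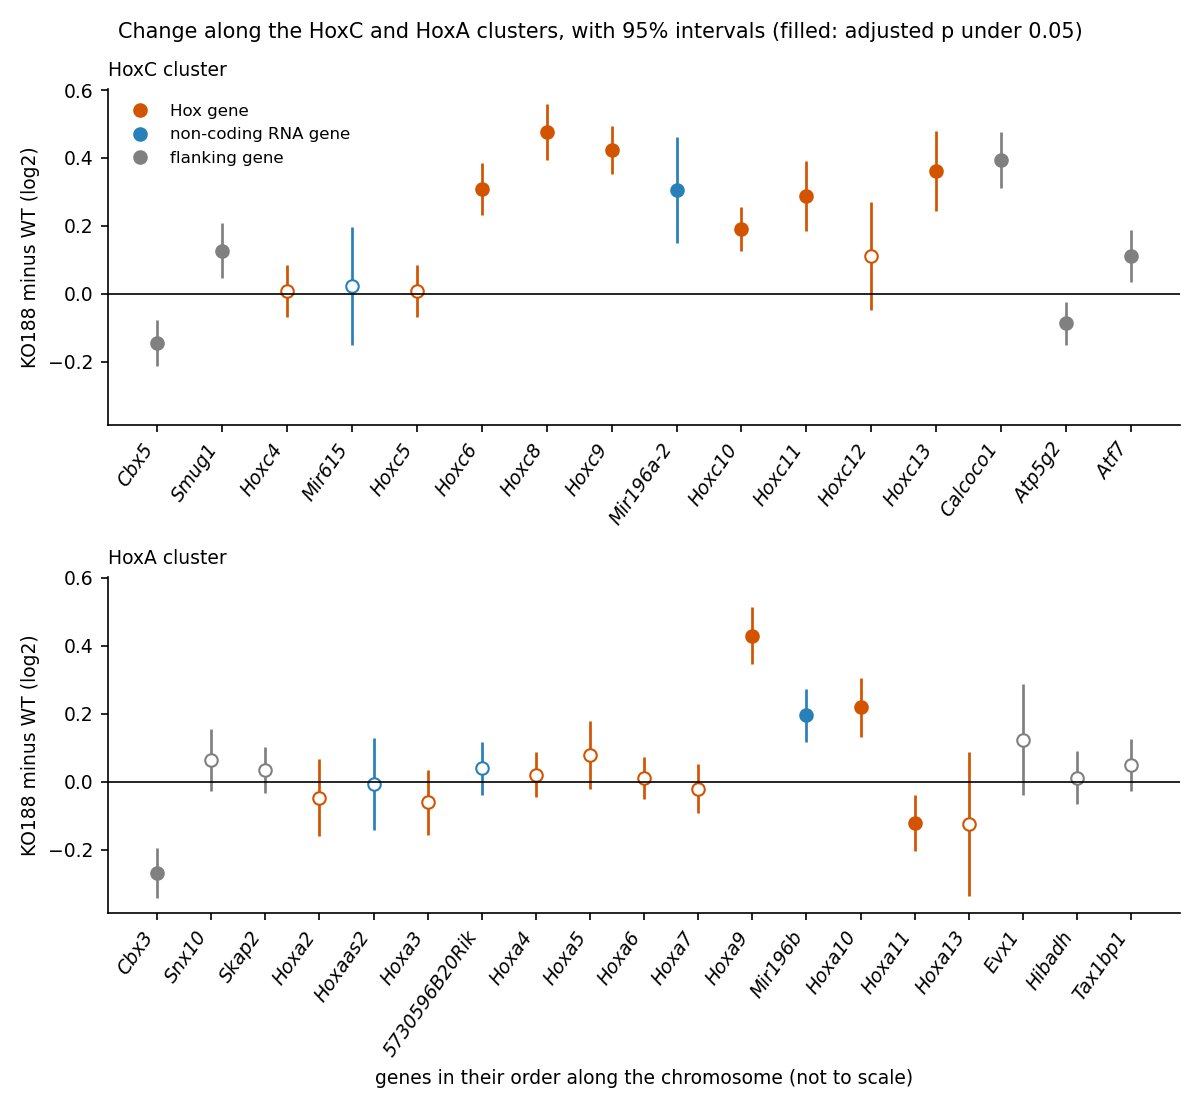
Change (KO188 minus WT, log2) with 95% intervals for measured genes in chromosomal order along the HoxC (top) and HoxA (bottom) clusters, not to scale; orange are Hox genes, blue non-coding genes, grey flanking genes, and filled points have a limma adjusted p under 0.05. In HoxC the filled orange points run from Hoxc6 to Hoxc11 and return at Hoxc13, and in HoxA they are Hoxa9 and Hoxa10 above 0 and Hoxa11 below.

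**Figure D4:**
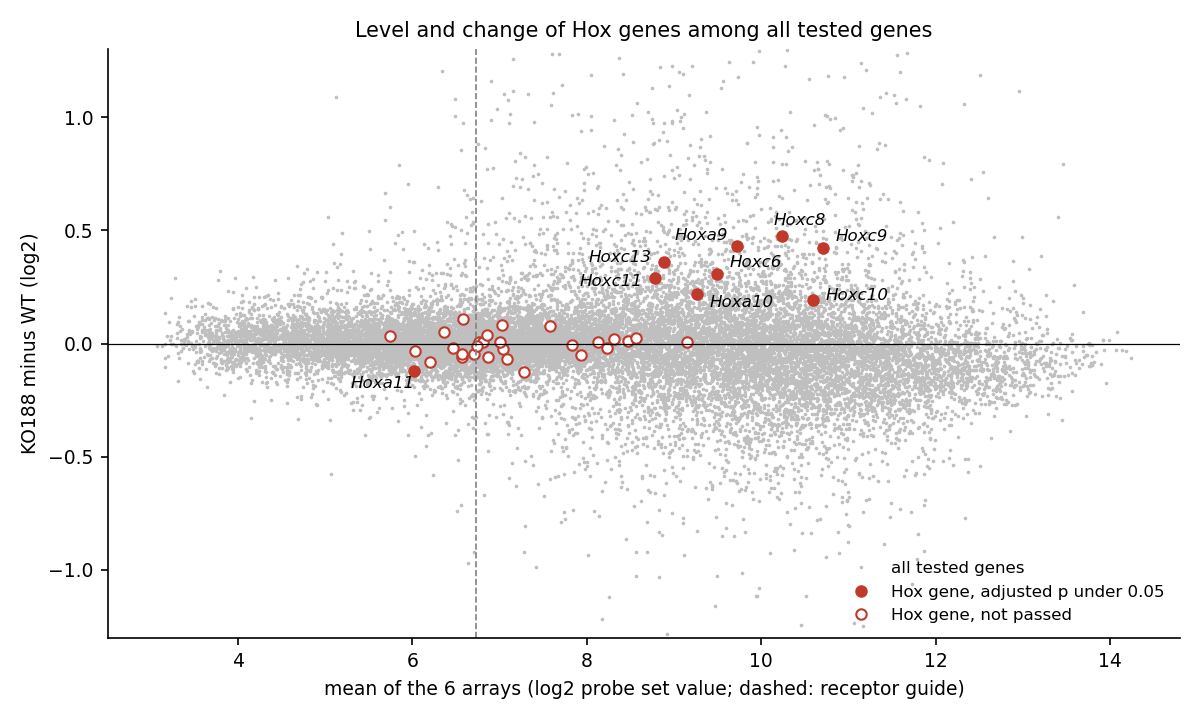
Change (KO188 minus WT, log2) against the mean of the 6 arrays for all tested genes (grey) and Hox genes (red; filled, limma adjusted p under 0.05), with the receptor guide dashed. The 8 Hox genes that rose lie to the right of the guide, at changes of 0.19 to 0.48, and the vertical axis leaves out genes beyond 1.3 in either direction.

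Of 8 measured TALE partners of Hox proteins (9 listed), all above the guide, 4 rose and 1 fell (median change 0.12), where 17.9% of all genes above the guide rose and 23.1% fell. Meis3 averaged 9.11 in KO188 and 8.71 in WT, a rise of 0.41 (limma adjusted p = 3.3e-04). Meis2 averaged 10.16 in KO188 and 9.85 in WT, a rise of 0.31 (limma adjusted p = 2.7e-04), its WT arrays holding 1 identical value. Pknox2 rose by 0.28 and Pbx2 by 0.23 (limma adjusted p = 0.0032 and 0.0065). Pknox1 averaged 8.21 in KO188 and 8.52 in WT and fell by 0.30 (limma adjusted p = 0.0023). Meis1, Pbx3 and Pbx4 did not pass, at changes of -0.01, -0.03 and 0.01.

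Of 27 measured Polycomb genes (29 listed), all above the guide, 6 rose and 8 fell (median change 0.02), beside 17.9% and 23.1% of all genes above the guide. Pcgf5, a subunit of variant repressive complex 1, rose by 0.72, and Ezh1, a methyltransferase of complex 2, by 0.48 (limma adjusted p = 1.9e-05 and 1.6e-04). Suz12, a core subunit of complex 2, averaged below WT and fell by 0.43 on the log2 scale (limma adjusted p = 7.7e-05). Of 15 measured Trithorax genes (16 listed), all above the guide, 5 rose and 4 fell (median change 0.04), beside the same shares. Setd1b, a histone methyltransferase, rose by 0.44, while Dpy30 and Men1, which serve in such complexes, fell by 0.30 and 0.25 (limma adjusted p = 9.8e-05, 3.2e-04 and 7.5e-04). With median centring 2 Trithorax genes rose, and with the replicate block 3.

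Retinoic acid is a known inducer of Hox genes in the embryo. Of 17 measured genes of its synthesis, binding and breakdown (18 listed) 5 rose and 1 fell (median change 0.03), beside 13.3% and 16.5% of all tested genes. All 5 rises were among the 14 above the guide by their mean over the 6 arrays. Of all genes above it 17.9% rose and 23.1% fell. Aldh1a1, which makes retinoic acid, rose by 1.79, and its WT mean of 6.35 lay below the receptor guide. Dhrs3, which turns retinal back to retinol, rose by 1.13, and Crabp2, which carries retinoic acid to its receptors, by 0.45 (limma adjusted p = 1.1e-06, 2.1e-05 and 3.2e-04 for Aldh1a1, Dhrs3 and Crabp2). The gene that fell was Cyp26a1, a retinoic acid hydroxylase below the guide, at -0.17 (limma adjusted p = 0.038), a call that ended whichever of the 6 arrays was left out. Cyp26c1 of the same family lay above the guide and rose by 0.16 (limma adjusted p = 0.025), a call kept under 8 of 15 alternatives. Cyp26b1 did not pass, at a change of 0.01. Aldh1a2 and Aldh1a3, of the family of Aldh1a1, did not pass either, at changes of 0.05 and -0.03. Rara, a retinoic acid receptor gene, rose by 0.21 (limma adjusted p = 0.0014). The receptor genes Rarb, Rarg, Rxra, Rxrb and Rxrg did not pass.

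Position in the skeleton is also marked by genes outside the clusters. Of 25 measured limb patterning genes (26 listed) 9 rose and 0 fell (median change 0.06), beside 13.3% and 16.5% of all tested genes. All 9 were among the 21 above the guide, where 17.9% of all genes rose and 23.1% fell. An unadjusted p under 0.05 in either direction was reached by 11 of the 25, beside 7595 of all 19938 tested genes. Pitx1, the hindlimb identity factor, read 10.28, 10.27 and 10.32 in KO188 cells, against 10.05, 9.97 and 10.08 in WT cells. The groups did not overlap, and the rise was 0.26 (limma adjusted p = 0.0025). Pax3 rose by 0.39 and Prrx2, a limb mesenchyme factor, by 0.32 (limma adjusted p = 1.3e-04 and 0.0016). Tbx4 and Tbx5, which mark hindlimb and forelimb, lay below the guide in both groups, with means of 6.56 and 5.66 in KO188, against 6.59 and 5.67 in WT. With median centring 5 limb genes rose and 3 fell.

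Much of the facial skeleton is formed by neural crest cells that lack Hox expression. Of 21 measured craniofacial genes (23 listed) 3 rose and 2 fell (median change -0.01), beside 13.3% and 16.5% of all tested genes. Dlx5, also an osteoblast factor, rose by 0.74, Twist1 by 0.47 and Six4 by 0.19, while Twist2 and Msx2 fell by 0.31 and 0.14 (limma adjusted p = 2.2e-04, 8.3e-04, 0.0055, 0.0047 and 0.026). The call of Msx2 ended with the replicate block (adjusted p = 0.051) and without 4 of the arrays in turn. Of the 8 ParaHox and Evx genes, relatives of the Hox family, 0 changed and 0 had an unadjusted p under 0.05 (median change 0.02). Of these 8, 3 lay at or below the receptor guide in both groups, 2 on either side of it and 3 above it in both. Of all 19938 tested genes 7595 had an unadjusted p under 0.05.

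**Figure D5:**
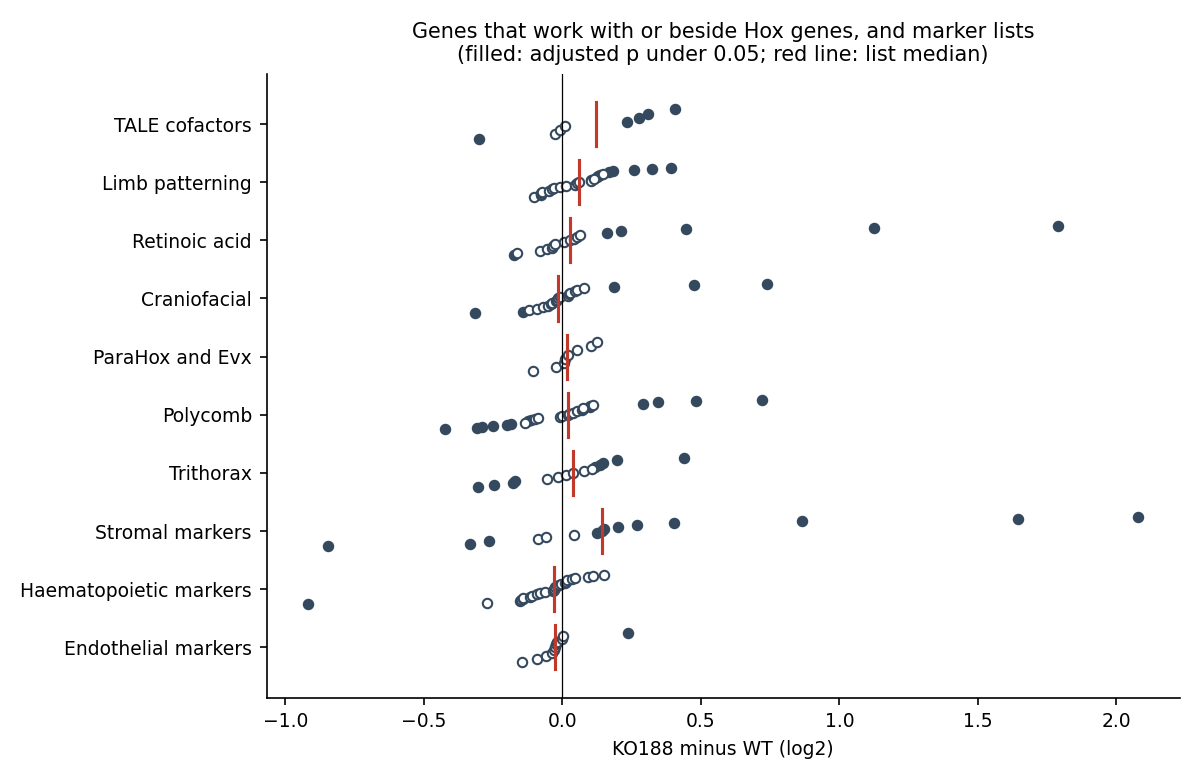
Change (KO188 minus WT, log2, horizontal axis) of each measured member of the lists of Hox partners, regulators, patterning genes and cell markers; filled points have a limma adjusted p under 0.05 and red lines are list medians. The TALE and stromal lists have medians of 0.12 and 0.14, and the other medians lie between -0.03 and 0.06.

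Marker lists were read to check the labelled cell type. Beside the counts below, 13.3% of all tested genes rose and 16.5% fell, and 17.9% and 23.1% of those above the guide. An unadjusted p under 0.05 was reached by 7595 of all 19938 tested genes. Of 15 measured stromal markers (16 listed) 9 rose and 3 fell (median change 0.14), and their mean level was 10.52 to 10.54 over KO188 arrays and 10.22 to 10.27 over WT arrays. Alpl, the alkaline phosphatase of osteoblasts, rose by 2.08, Gas6 by 1.65 and Pdgfra, a receptor of stromal progenitors, by 0.87 (limma adjusted p = 8.6e-08, 4.0e-05 and 2.7e-06). In the same list Nt5e fell by 0.85, Cd44 by 0.33 and Itgb1 by 0.27 (limma adjusted p = 6.0e-05, 1.2e-04 and 5.4e-04), so its members moved in both directions. The part of these changes in those of the Hox genes was not tested. Of 26 haematopoietic markers (28 listed) 0 rose and 1 fell, while 6 had an unadjusted p under 0.05 in either direction. The list had a median change of -0.03, with 18 at or below the guide in both groups, among them Ptprc at 6.23 in KO188 and 6.25 in WT. Another 7 haematopoietic markers lay above the guide in both groups and 1 lay on either side of it. Whether blood cells were present in the cultures was not tested. The mean level of the 26 markers was 6.59 to 6.69 over KO188 arrays and 6.71 to 6.73 over WT arrays. The gene that fell was Cd34, also made by stromal cells, at 11.41 in KO188 and 12.33 in WT (change -0.92, limma adjusted p = 1.4e-06). With median centring 6 haematopoietic markers fell. Of 11 endothelial markers 1 rose and 0 fell, with 6 at or below the guide and list means of 6.74 to 6.78 over KO188 and 6.77 to 6.78 over WT arrays. The one that rose was Kdr, below the guide, at 6.63 in KO188 and 6.40 in WT (limma adjusted p = 0.021), a call that ended with the replicate block and without 4 of the arrays in turn. Of 12 cartilage and tendon markers 3 rose and 1 fell (median change 0.02). Sox9 rose by 0.52, Mkx by 0.22 and Sox5 by 0.19, while Scx fell by 0.40 (limma adjusted p = 9.0e-05, 0.0017, 0.029 and 7.3e-05). The Sox5 call ended under 7 of 14 alternatives: 4 that each omit a single array, the replicate block (adjusted p = 0.068), quantile scaling (0.076) and centring on the array median (0.062).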

How the data were processed

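The authors deposited log2 values for 35556 probe sets on 6 arrays. Per the submitters' processing notes the tools were Partek, RMA and Affymetrix Expression Console; no version, role or order is stated, and the genome build was not given in the sources used here. RMA summaries are compressed near background, so changes of dim genes may be understated, which was not tested here. Groups came from the sample titles.

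Probe sets were named through the platform annotation, where 21789 had 1 symbol and 1621 had several and were left unnamed. A RefSeq table for GRCm38.p6 matched 21698 of them and changed 0 symbols. Where a gene had several probe sets (999 genes) the brightest on average represented it, leaving 19938 genes and no filter. Tests used limma 3.58.1 in R 4.3.3 (lmFit, eBayes without trend) with Benjamini-Hochberg adjustment and a threshold of 0.05; intervals are 95%. The tests were tried on simulated arrays with known changes. Sequences were read with Python 3.11.15 and figures drawn with matplotlib 3.10.9.

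The Hox genes, the 13 context lists (244 entries, 217 measured) and the receptor guide were chosen with earlier results of these data known. Values per array are given for Hox genes past the threshold whose groups do not overlap, and for selected neighbours. Of each list the 3 members of lowest p past the threshold are named, or every called member where 5 or fewer were called. Cyp26a1, Cyp26c1, Rara, Tbx4, Tbx5, Ptprc, Cd44, Itgb1, Nt5e, Cbx3, Atp5g2 and Atf7 were chosen after their values were seen. So were members given as not passing, the flanking genes' order and the neighbours given per array. Alternatives were median centring, quantile normalization, a filter at the 50th percentile of level, one at the guide, a variance trend, both other uses of probe sets, replicate number as a block and each array left out. Leaving out genes with equal values within a group was added after the data were seen.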

Additional observations from a re-analysis of the deposited data

How the results depend on the processing

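The 8 rises held in all alternatives in which the genes were tested, with adjusted p of at most 0.021 for Hoxa10, the weakest of them. The number of Hox genes that rose was 8 to 9 with each array left out in turn (2 to 3 in HoxA, 0 to 1 in HoxD, 2 to 3 in paralogue groups 4 to 8 and 6 to 7 in groups 9 to 13), and the number that fell 0 to 1, likewise in HoxA and in groups 9 to 13. The 1 fall, Hoxa11, became 0 with the filter at the 50th percentile and with the filter at the guide, both of which leave it untested, and with a variance trend and the replicate block, where the cause was not tested. The median Hox change was -0.036 with median centring and -0.036 with quantile normalization, 0.20 with the filter at the 50th percentile, which keeps 14 Hox genes, and 0.00043 to 0.027 with an array left out. Over all context lists 49 genes rose and 25 fell, 39 to 45 and 21 to 27 with an array left out, and the number that fell was 44 with median centring and 39 with quantile normalization. Of all calls 44.5% were rises, 30.8% with median centring, which moves the array medians of 7.43 to 7.50 together, and 39.1% with quantile normalization. Leaving out genes with equal values within a group kept 20 Hox genes, of which 6 rose, all among the 8, and 1 fell; Hoxc11 and Hoxc13 are not tested there. Deviations of arrays with the same replicate number correlated at 0.018, 0.010 and -0.028, so no shared effect of a number was seen across genes. These values cannot tell whether the samples were paired, since a small shared effect would leave them near these levels. With the replicate block 8 Hox genes rose and 0 fell, while 11.4% of all genes rose and 13.8% fell.

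The 3 arrays per group limit the precision, and 9 Hox genes lay at or below the receptor guide in both groups. In RefSeq 10 Hox genes, none of them called, overlap the span of another Hox gene.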
